A study of Homo sapiens with 6 samples.

Results

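Proglucagon is the peptide hormone precursor encoded by GCG, and the genes described here are GCG itself, the convertase genes PCSK1 and PCSK2 that process it, the receptor genes GCGR and GLP1R for its products, and DPP4 and FAP, which encode peptide-degrading enzymes and lie on either side of GCG on chromosome 2. They are 7 genes of the 18404 that the series names here. GCG was chosen by its intensity on these arrays, bright in a liver tumour line and lower with the SALL4 hairpin, so the difference in GCG is a description and carries no test. The other members were added for their roles or their position. Each of 5 members has 1 probe set, a group of probes summarised into 1 value. No probe set with a single gene symbol is given for PCSK1 or PCSK2 in the annotation used here, so they are not analysed here.

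RNA from cultures of SNU-398, a human liver cancer (hepatocellular carcinoma) line, was measured on 6 Affymetrix arrays. The control cultures, 3 arrays, carried a scrambled short hairpin RNA (shRNA), and 3 arrays came from cultures with shRNA against SALL4, which encodes a zinc finger factor active in the fetal liver and in embryonic stem cells. The labels call the arrays of a group biological replicates and give no hairpin sequence, no rescue, and no time after treatment. What the hairpin does by other routes and what lower SALL4 does cannot be told apart. The p-values set each difference against the spread between these cultures, drawn toward the spread typical of all genes in the fit.

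In the body, GCG is transcribed mainly in alpha cells of the pancreatic islet and in L cells of the gut. PCSK2 cuts proglucagon into glucagon in alpha cells, and PCSK1 releases the glucagon-like peptides in L cells. Glucagon binds GCGR on hepatocytes and, through cyclic AMP and protein kinase A, raises glucose output. DPP4 inactivates glucagon-like peptide 1 by clipping its end, and FAP is its closest relative. Hepatocytes are the target of glucagon rather than its usual source.

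The letters before the GCG start are printed because GCG had the largest difference of the measured members, and those of DPP4 because it is the next protein-coding gene before GCG in RefSeq order. Both are the 250 bases before the start in RefSeq, build GRCh38.p14, on the minus strand, written from 5′ to 3′. GCG is at chr2:162152248-162152497 and DPP4 at chr2:162074216-162074465. Capitals mark matches, on either strand, to TATAAA (the TATA box letters; TTTATA on the other strand), ATATT (a short AT-rich string; AATAT on the other strand) and TGACG (the core of the cyclic AMP response element; CGTCA on the other strand).
GCG: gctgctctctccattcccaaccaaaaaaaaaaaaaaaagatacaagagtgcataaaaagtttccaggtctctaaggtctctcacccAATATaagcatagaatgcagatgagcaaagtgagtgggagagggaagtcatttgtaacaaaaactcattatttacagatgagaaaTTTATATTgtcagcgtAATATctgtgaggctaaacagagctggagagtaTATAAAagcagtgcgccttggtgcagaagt
DPP4: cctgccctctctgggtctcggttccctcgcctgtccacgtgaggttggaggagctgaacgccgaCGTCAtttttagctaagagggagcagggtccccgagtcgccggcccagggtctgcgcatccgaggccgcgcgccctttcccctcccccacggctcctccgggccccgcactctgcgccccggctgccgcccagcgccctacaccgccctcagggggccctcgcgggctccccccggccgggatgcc

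The GCG window was poor in G and C, with 38.4% of its bases against a median of 58% over 35116 RefSeq windows of this length. The DPP4 window had 73.6%, GCGR 77.6% and GLP1R 77.2%. The GCG window holds TATAAA on the gene's strand 30 bases before the start and TTTATA 79 bases before it, and 10.7% of all windows hold TATAAA on either strand. ATATT occurs 3 times, 164, 76 and 63 bases before the start, and the second of these overlaps TTTATA. At least 3 matches to ATATT are found in 4.13% of all windows, and at least 1 in 21.4%. The DPP4 window holds neither string and has 1 match to TGACG, 186 bases before the start, as 21.2% of windows have at least 1. The strings were chosen with these letters in view, and a match is only a match of letters.

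The array medians lay between 47.85 and 51.69 on the linear intensity scale, with a floor at 10 that held 15.5% to 16.9% of the values of an array. SALL4 knockdown replicate 2 had both the lowest median and the most values at the floor. SALL4, the targeted gene, was at 283, 264 and 335 on the scrambled arrays and at 121, 119 and 117 on the knockdown arrays. It fell by 1.30 ± 0.18 (SE) on the log2 scale (limma adjusted p = 0.0112 in the fit of 13711 genes that passed a filter on low values, called the filtered fit; 0.0946 in the fit without the filter). In the filtered fit 1.60% of genes passed an adjusted p of 0.05, 0.547% higher and 1.06% lower, and 16.9% had an unadjusted p under 0.05. Without the filter limma called 0 of 18404 genes (2864 at an unadjusted p under 0.05).

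GCG was at 657, 894 and 684 on the 3 scrambled arrays. On the knockdown arrays it was at 284.5, 175 and 211. The groups did not overlap, as in 22.4% of all genes of the filtered fit (11.0% lower, 11.4% higher): the lowest scrambled value was 2.31 times the highest knockdown value. The mean was 745 ± 130 with the scrambled shRNA and 224 ± 55.9 with the SALL4 shRNA (SD, n = 3 each), and the log2 difference was -1.75 ± 0.22 (SE). The knockdown arrays thus had 29.7% of the scrambled intensity on the log2 mean, from 23.7% in knockdown replicate 2 to 38.5% in replicate 1. Of the 13711 differences in the filtered fit, ordered from the lowest, this one ranked 11. Only 1 probe set measured GCG, and where in the transcript it lies is not known here. The RefSeq table also has a long noncoding RNA gene, LOC101929532, whose span covers that of GCG, and whether it adds to this signal was not tested. In a culture measured in bulk, fewer cells with GCG RNA and less GCG RNA per cell cannot be told apart.

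**Figure D1:**
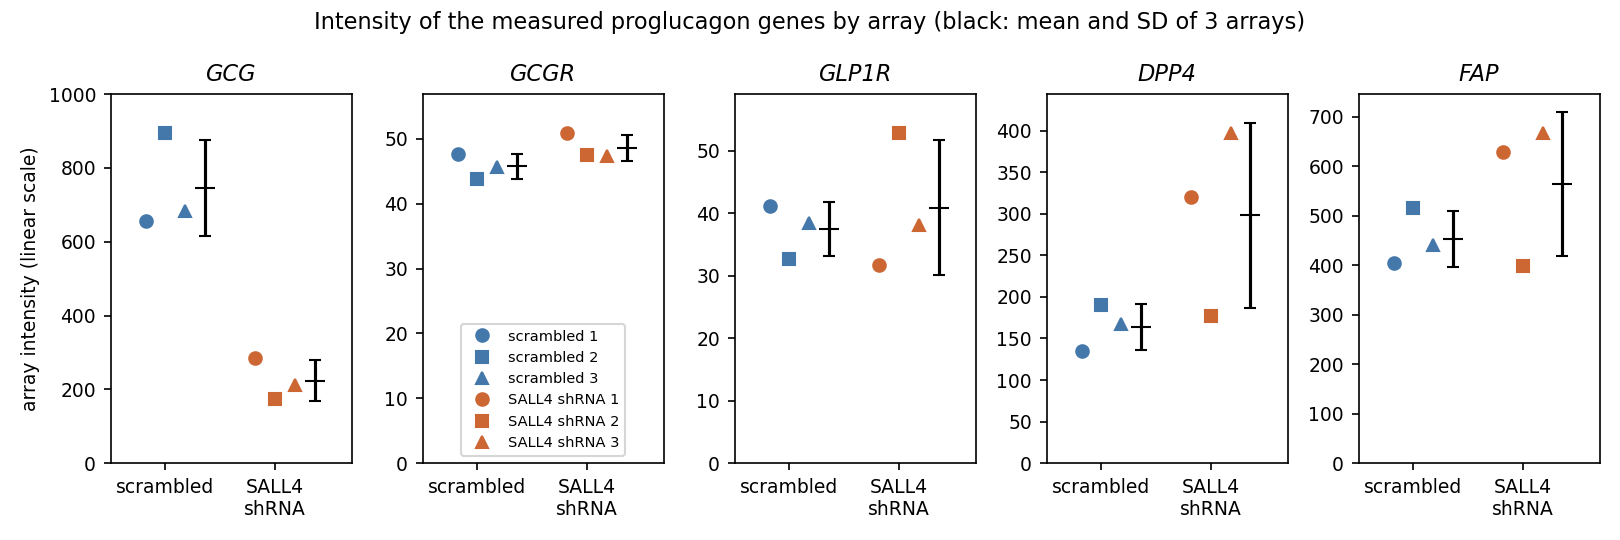
Array intensity on a linear scale for GCG, GCGR, GLP1R, DPP4 and FAP, each with its own axis from 0. Blue points are the 3 scrambled arrays and orange points the 3 SALL4 shRNA arrays, the marker shape gives the replicate number, and black bars give the mean and SD. The GCG groups lie apart, from 657 to 894 against 175 to 284.5, while in the other panels the groups overlap.

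The receptor genes showed no difference beyond the spread between arrays. GCGR, the glucagon receptor, was at 47.7, 43.9 and 45.7 on the scrambled arrays and at 50.9, 47.5 and 47.4 on the knockdown arrays. The log2 difference was 0.09 ± 0.17 (SE), with a 95% interval from -0.29 to 0.47 and a limma adjusted p of 0.852. GLP1R, the receptor for glucagon-like peptide 1, was at 41.2, 32.7 and 38.4 on the scrambled arrays and at 31.7, 52.8 and 38.1 on the knockdown arrays. Its difference was 0.10 ± 0.22, with an interval from -0.38 to 0.58 and a limma adjusted p of 0.868. Knockdown replicate 2 gave the highest GLP1R value, and without it the difference was -0.10. The table holds no detection calls, so whether such dim signals lie above background is unknown.

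DPP4, a membrane-bound dipeptidyl peptidase, was at 135, 190 and 168 on the scrambled arrays. It was at 320 and 397 on knockdown arrays 1 and 3 and at 177 on knockdown array 2. Replicates 1 and 3 were above every scrambled array, and replicate 2 lay among them. The means were 164 ± 27.8 and 298 ± 111 (SD, n = 3 each). The log2 difference of 0.80 ± 0.28 (SE) had a 95% interval from 0.19 to 1.40 and did not pass in limma (unadjusted p = 0.0139, adjusted p = 0.167). Without knockdown replicate 2 it was 1.13 with an adjusted p of 0.0625, and without replicate 3 it was 0.55 (0.382).

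FAP, a serine protease of activated fibroblasts, was at 404, 515 and 440.5 on the scrambled arrays and at 628, 398 and 667 on the knockdown arrays. Replicates 1 and 3 were again the high knockdown arrays, and replicate 2 was below all scrambled arrays. The log2 difference was 0.29 ± 0.23 (SE), with an interval from -0.21 to 0.78 and a limma adjusted p of 0.561. It was 0.52 without knockdown replicate 2. Relative to the scrambled mean, knockdown replicates 1, 2 and 3 were at 0.98, 0.13 and 1.29 for DPP4, at 0.48, -0.18 and 0.57 for FAP and at -1.38, -2.08 and -1.80 for GCG on the log2 scale. For each of the 3 genes replicate 2 had the lowest knockdown value, and the part of differences between arrays in this was not tested.

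Of the 10 protein-coding genes on each side of GCG in RefSeq order, 18 have a probe set with a single symbol and 12 of them were in the filtered fit. Of the 12, 11 did not pass. The sodium channel gene SCN2A, the last of the 10 after GCG, was called lower, as were 1.06% of all genes in the fit. It entered the fit only through its scrambled values, so its fall is a description. The median log2 difference of the 12 was -0.10, against 0.02 over all genes of the fit. In 2 of the 12, SCN2A and COBLL1, all knockdown values were below all scrambled values, which held for 11.0% of all genes in the fit. SCN2A was at 47.1, 54.7 and 26.6 on the scrambled arrays and at 13.6, 10.2 and 19.9 on the knockdown arrays, a log2 change of -1.55 ± 0.30 (SE; limma adjusted p = 0.0291). Its adjusted p was 0.177 in the limma fit without the filter. Of the fits that left out 1 array, it passed in those without scrambled replicate 3 or knockdown replicate 3 (adjusted p from 0.0309 to 0.107). With the replicate number as a block its adjusted p was 0.0783.

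Nearer to GCG, the calcium-binding protein gene GCA, the third gene after it, was at 271, 261 and 174 on the scrambled arrays and at 176, 62.4 and 142 on the knockdown arrays. The groups overlapped, and the log2 difference of -0.99 ± 0.34 (SE) did not pass (limma adjusted p = 0.157). Without knockdown replicate 2 it was -0.54. IFIH1, the cytosolic RNA sensor MDA5 between FAP and GCA, was at 1406 ± 215 and 1487 ± 203 (SD, n = 3 each), and its difference on the log2 scale was 0.08. COBLL1 was at -0.45 ± 0.18 (SE; limma adjusted p = 0.241). The adaptor gene GRB14 (-0.51), the amino acid transporter gene SLC38A11 (-0.22), the proteasome subunit gene PSMD14 (-0.07), the signalling adaptor gene TANK (-0.12), the microtubule-severing gene FIGN (0.16) and the RNA-binding gene RBMS1 (0.28) did not pass either. RBMS1 has a second probe set at 1.47, whose values ran from 10.0 to 329 within the knockdown arrays. Below the filter were PLA2R1 (0.12), ITGB6 (0.46), TBR1 (-0.30), SLC4A10 (-0.04), KCNH7 (-0.05) and SCN3A (-0.19). The difference between GCG and its neighbours was not tested.

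**Figure D2:**
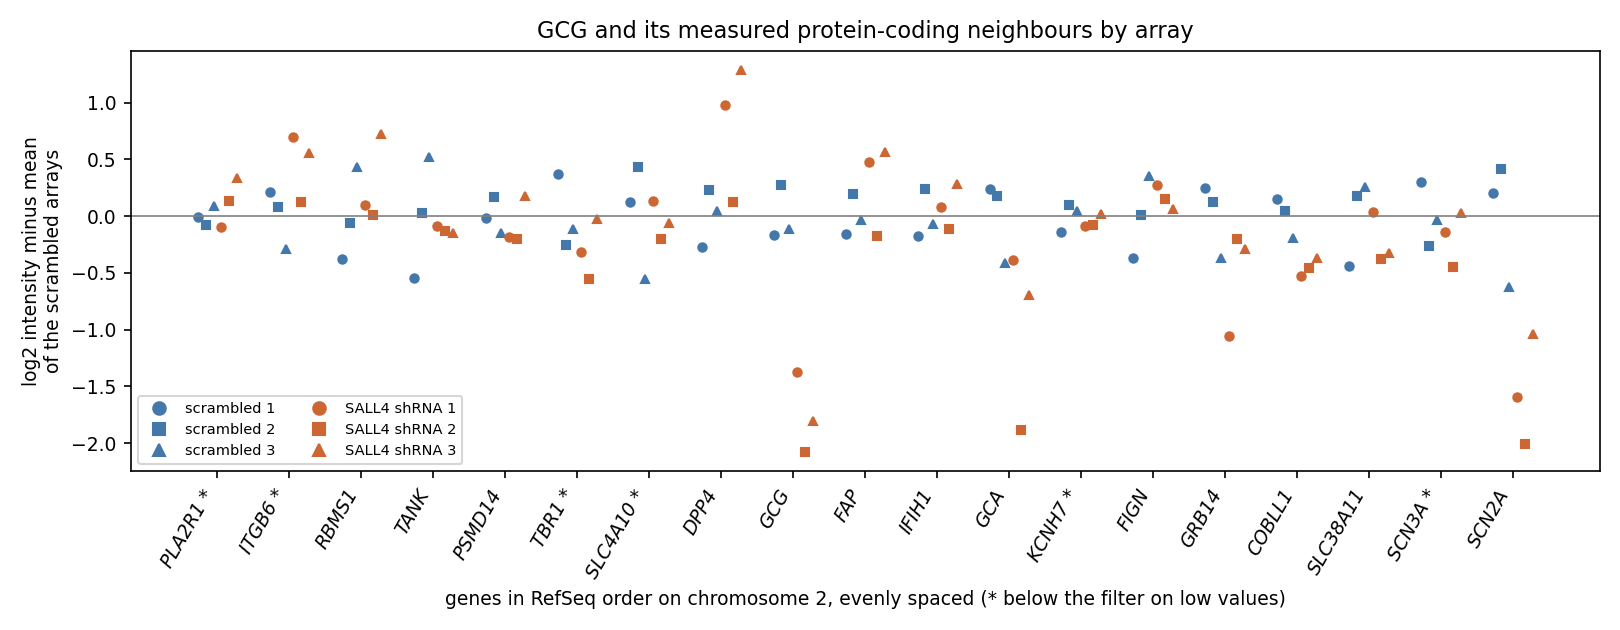
Log2 intensity of each array minus the mean of the scrambled arrays (vertical axis) for GCG and the 18 measured neighbours, in RefSeq order and evenly spaced. Blue points are scrambled and orange points SALL4 shRNA arrays, with the marker shape giving the replicate number and an asterisk marking genes below the filter. GCG and SCN2A have all knockdown points below all scrambled points at differences of -1.75 and -1.55, and DPP4 has knockdown replicates 1 and 3 above the scrambled points.

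The ligands related to glucagon were dim. GIP, VIP, ADCYAP1 and GHRH, which encode gut, neural and hypothalamic peptides of the same family, were all below the filter, with means from 11.7 to 30.9. GHRH was at 29.7 ± 3.15 and 21.2 ± 2.04 (SD, n = 3 each), and SCT was not analysed here. Of 12 receptors of these peptides and receptor activity-modifying proteins, 8 were in the filtered fit and 0 passed in limma (0 at an unadjusted p under 0.05), with a median of 0.09. Over all genes of the fit 1.60% passed and 16.9% had an unadjusted p under 0.05. RAMP1, a receptor partner, was at 0.31 ± 0.24 (SE) and the growth hormone-releasing hormone receptor gene GHRHR at -0.27 ± 0.23.

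Of 16 genes of prohormone cleavage and trimming, 13 were measured and 11 were in the filtered fit. None passed in limma (0 of 11, 1 at an unadjusted p under 0.05), and their median was 0.13. The shares over all genes of the fit were 1.60% passing and 16.9% under that unadjusted p. CPE, the carboxypeptidase that trims cut prohormones, was at 70.0, 54.8 and 64.8 on the scrambled arrays and at 95.0, 69.7 and 109 on the knockdown arrays, a log2 difference of 0.51 ± 0.21 (SE; adjusted p = 0.25). The site-1 protease gene MBTPS1 was at -0.35 ± 0.24. Among related convertases FURIN was at 59.2 ± 11 and 64.2 ± 7.05 and PCSK7 at 92.8 ± 13.2 and 112 ± 26.3 (SD, n = 3 each). SCG5, the chaperone of PCSK2, was below the filter at 22.5 ± 6.02 and 19 ± 2.09.

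Of 15 secretory granule proteins, 11 were in the filtered fit, 1 fell and 10 did not pass, with a median of 0.03. Over all genes of the fit 1.06% fell and the median was 0.02. The one that fell was SCG3, a granin that helps sort hormones into granules. It was at 78.6, 77.3 and 36.3 on the scrambled arrays and at 19.0, 16.8 and 25.9 on the knockdown arrays. The groups did not overlap, as in 22.4% of all genes of the fit. The log2 change was -1.58 ± 0.29 (SE; limma adjusted p = 0.0264). SCG3 was in the fit only through its scrambled values, so its fall is a description. Its adjusted p was 0.168 in the limma fit without the filter. It kept the call only without scrambled replicate 3 or knockdown replicate 3 when 1 array was left out (adjusted p from 0.0151 to 0.098). The replicate block gave an adjusted p of 0.0687. The granin CHGB was at 131 ± 17.6 and 130 ± 23.2 (SD, n = 3 each), and CHGA, at 25.6 ± 0.711 and 24.2 ± 2.44, was below the filter.

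Of 15 peptide-degrading enzymes 12 were in the filtered fit, with a median of 0.04. In limma 0 passed (1.60% of all genes in the fit), and 2 had an unadjusted p under 0.05 (16.9% of all genes). Besides DPP4, the second was PREPL, a prolyl endopeptidase-like hydrolase gene, at 705, 738 and 924 on the scrambled arrays and at 534, 477 and 488 on the knockdown arrays. Its groups did not overlap, as in 22.4% of all genes of the fit. The log2 difference was -0.65 ± 0.19 (SE, limma adjusted p = 0.0994). MME, neprilysin, which also degrades glucagon-like peptide 1, was at 485 ± 55.9 and 452 ± 127, and the intracellular dipeptidyl peptidase gene DPP8 at 375 ± 44.1 and 344 ± 74.6 (SD, n = 3 each). DPP10 was at the floor on all 6 arrays.

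Of 26 regulators known to act on GCG in islet or gut, 21 were measured and 19 were in the filtered fit. In limma 0 passed and 1 had an unadjusted p under 0.05, against 1.60% and 16.9% of all genes in the fit. The median of the 19 was 0.14. TCF7L2, the Wnt effector that acts on GCG in L cells, was at 559 ± 82.8 and 746 ± 45.9 (SD, n = 3 each). Its groups did not overlap, as in 22.4% of all genes of the fit. It differed by 0.43 ± 0.19 (SE) on the log2 scale (limma adjusted p = 0.278). On the log2 scale the forkhead factor genes FOXA1, FOXA2 and FOXA3 differed by 0.22 ± 0.19, -0.12 ± 0.27 and 0.36 ± 0.22 (SE). FOXA1 was at 133 ± 17.2 and 155 ± 12.6 (SD, n = 3 each). PAX6, an activator of GCG in alpha cells, was at 72.9, 112 and 72.5 on the scrambled arrays and at 63.2, 66.6 and 75.3 on the knockdown arrays. RFX6, an islet factor, was at the floor on all 6 arrays. Where these regulators overlapped between the groups, the arrays do not show that they were alike.

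Downstream of the glucagon receptor, 23 of 32 listed genes were in the filtered fit, with a median of 0.10. In limma 0 passed and 3 had an unadjusted p under 0.05 (1.60% and 16.9% of all genes in the fit). CREM, a cyclic AMP-responsive transcription factor gene, was at 104, 112 and 104 on the scrambled arrays and at 69.5, 58.5 and 62.4 on the knockdown arrays. The log2 difference of -0.75 ± 0.18 (SE) had a limma adjusted p of 0.0594. PRKAR1A, a regulatory subunit of protein kinase A, was at 1338, 1343 and 1860 on the scrambled arrays and at 2638, 2652 and 2397 on the knockdown arrays. It differed by 0.78 ± 0.20 (SE, limma adjusted p = 0.0696). The groups did not overlap for either gene. Of the 23, 3 had all knockdown values above all scrambled values and 3 below (11.4% and 11.0% of all genes in the fit). The gluconeogenesis genes PCK1 and G6PC1, targets of glucagon in hepatocytes, were below the filter at 24.9 ± 0.22 and 22.1 ± 4.01 and at 13.2 ± 2.07 and 12.7 ± 1.33 (SD, n = 3 each).

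**Figure D3:**
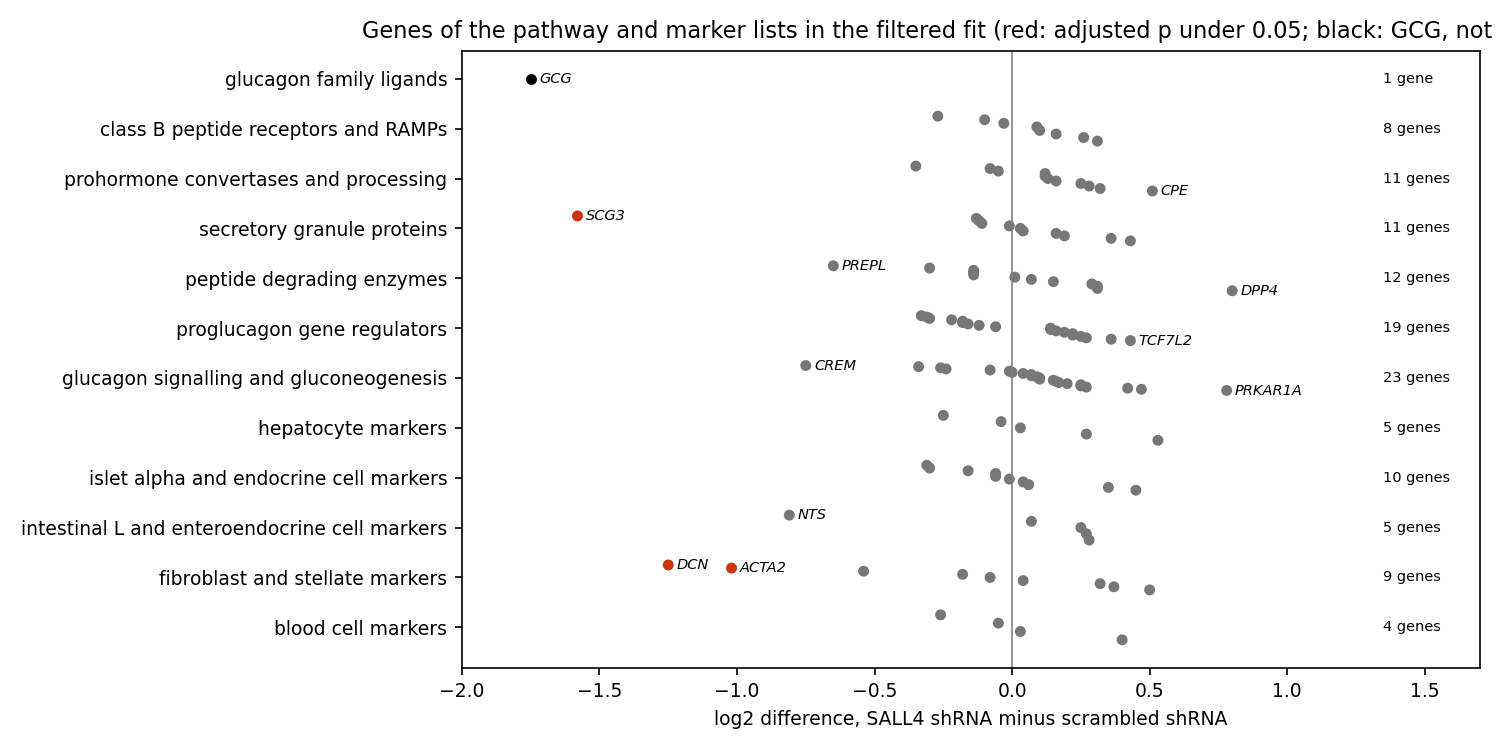
Log2 difference, SALL4 shRNA minus scrambled shRNA, for each gene of the filtered fit in 12 lists of pathway genes and markers (1 point per gene, some genes in more than 1 list). Red points passed an adjusted p of 0.05, and GCG is black because it was chosen for its fall. SCG3, DCN and ACTA2 are the red points, at -1.58, -1.25 and -1.02. SCG3 was in the fit only through its scrambled values.

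The liver identity of the cells is weakly marked on these arrays. Of 17 measured hepatocyte markers 12 were below the filter, among them ALB (11.2 ± 1.39 and 12.1 ± 0.403, SD, n = 3 each) and AFP (15 ± 0.663 and 13.5 ± 3.76). The summed intensity of the 17 was 383 to 451 on the scrambled arrays and 418 to 462 on the knockdown arrays. Of the other 5, 0 passed in limma and 1 had an unadjusted p under 0.05, against 1.60% and 16.9% of all genes in the fit. The median of the 5 was 0.03, with 3 differences above 0 and 2 below. AMBP was at 0.53 ± 0.23 (SE) and APOA2, in the fit only through its knockdown values, at 0.27 ± 0.25. APOA1 was at -0.25 ± 0.19 and SERPINA1 at -0.04 ± 0.21.

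Markers of the cells that normally make glucagon were measured on the same arrays, and their difference from GCG was not tested. Of 13 measured islet markers, 10 were in the filtered fit, with 4 differences above 0, 6 below and a median of -0.03. In limma 0 passed and 1 had an unadjusted p under 0.05 (1.60% and 16.9% of all genes in the fit). The summed intensity of the 13 was 785 to 878 on the scrambled arrays and 662 to 931 on the knockdown arrays. IAPP, islet amyloid polypeptide, was at the floor on all 6 arrays. ABCC8 and LOXL4, with the largest absolute differences, were at 0.45 ± 0.18 and 0.35 ± 0.21 (SE). GHRL, with the largest below 0, was at -0.31 ± 0.20 (SE). Of 11 measured markers of L and other enteroendocrine cells, 5 were in the fit, with a median of 0.25. In limma 0 of the 5 passed and 1 had an unadjusted p under 0.05, beside the same shares over all genes. The 11 summed to 362 to 439 on the scrambled and 377 to 422 on the knockdown arrays. NTS, neurotensin, was at 51.4, 105 and 48.4 on the scrambled arrays and at 44.7, 31.6 and 34.1 on the knockdown arrays. Its groups did not overlap, as in 22.4% of all genes of the fit. The log2 difference was -0.81 ± 0.28 (SE, limma adjusted p = 0.167). Scrambled replicate 2 was the highest NTS value, and without it the difference was -0.46. The bile acid receptor gene GPBAR1 was at 0.28 ± 0.19, and INSL5, a defining L cell peptide, was at the floor on 5 of 6 arrays.

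FAP is also a fibroblast gene. Of 12 fibroblast and stellate markers 9 were in the filtered fit, 2 fell and 7 did not pass (4 of the 9 had an unadjusted p under 0.05). Over all genes of the fit 1.06% fell and 16.9% had an unadjusted p under 0.05. The knockdown values lay below all scrambled values in 3 of the 9 and above them in 1. Over all genes of the fit these shares were 11.0% and 11.4%. The median of the 9 was -0.08, with 4 differences above 0 and 5 below, and the 12 markers summed to 2776 to 2946 on the scrambled and 2157 to 2770 on the knockdown arrays. The matrix proteoglycan gene DCN changed by -1.25 ± 0.21 and the smooth muscle actin gene ACTA2 by -1.02 ± 0.18 (SE; limma adjusted p = 0.0218 and 0.0241). Of the fits that left out 1 array, DCN passed in that without knockdown replicate 3 alone and ACTA2 in none; with the replicate block the adjusted p were 0.0562 and 0.0608. The collagen genes COL1A2 and COL1A1 were at 0.50 ± 0.20 and 0.37 ± 0.20 (SE, limma adjusted p = 0.235 and 0.38), COL1A2 with all knockdown values above all scrambled values. The collagen gene COL3A1 went the other way, at -0.54 ± 0.21 (SE, limma adjusted p = 0.204), with all knockdown values below all scrambled values. PDGFRA was below the filter. Of 10 measured blood cell markers, PTPRC and LYZ were at the floor on all 6 arrays, and the sums were 286 to 336 and 307 to 402. Of the 4 in the fit 0 passed in limma (0 at an unadjusted p under 0.05), with CD68 at 0.40 ± 0.25 and CD4 at -0.26 ± 0.20. The part of any such cells in the values of GCG, DPP4 and FAP was not tested.

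Over the 6 arrays, the genes of the filtered fit most like GCG by Pearson correlation of log2 intensity were PLAC8L1, EFR3A, NINJ2-AS1, CREM and POGLUT1, a protein O-glucosyltransferase gene. Their r lay between 0.997 and 0.999 over 6 arrays, and 153 of 13710 genes had r above 0.95. Such a correlation mostly reflects the difference between the 2 groups of 3 arrays, on which all these genes were measured. The order of the arrays within each group was part of this choice, so nothing is read from it. PLAC8L1 was at 193, 251 and 194 on the scrambled arrays and at 65.9, 38.2 and 44.3 on the knockdown arrays.

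**Figure D4:**
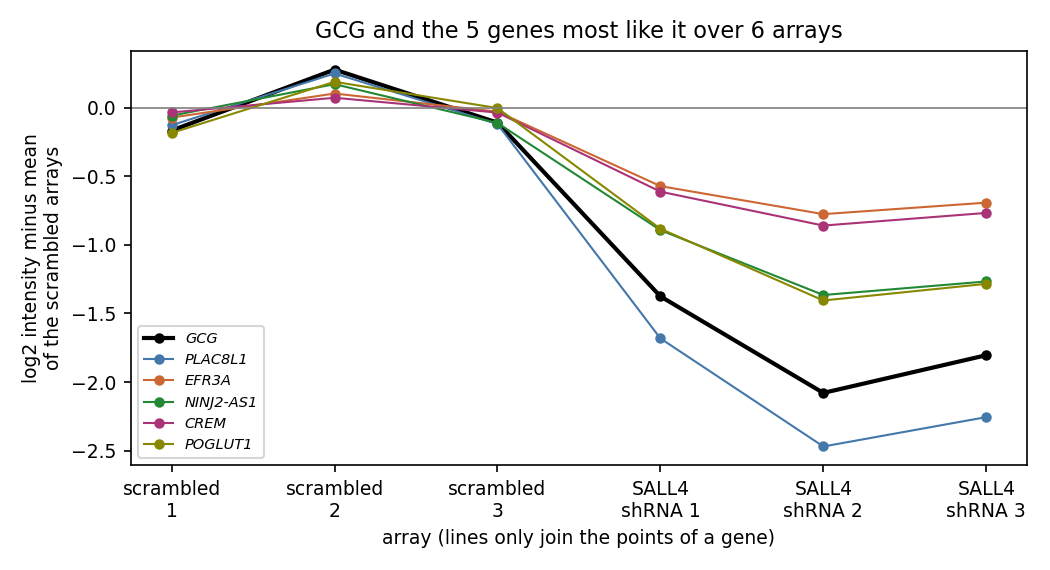
Log2 intensity minus the mean of the scrambled arrays (vertical axis) on each of the 6 arrays (horizontal axis) for GCG in black and the 5 genes most correlated with it. The genes were picked for following GCG over these arrays, so the lines run alike by choice, and PLAC8L1 has the largest difference, -2.14.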

How the data were processed

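The members and gene lists were chosen with earlier results of these data known. The authors deposited linear array intensities for 32319 probe sets on 6 arrays; RMA is named in the submitters' processing notes, while its version and any later step, such as the floor at 10, are not stated in those notes as given. The depositors' annotation gives 1 gene symbol to 19158 probe sets, and symbols were updated through Entrez identifiers (19128 matched). A gene with several probe sets was represented by the one brightest on average, which gave 18404 genes. Log2 intensities were compared, SALL4 shRNA minus scrambled, by lmFit and eBayes of limma 3.58.1 (R 4.3.3), two-sided, calling genes at a Benjamini-Hochberg adjusted p under 0.05. The fit kept the 13711 genes whose log2 intensities averaged 5 or more (intensity 32) in either group, a filter that uses the group means. SE and 95% intervals come from it. The code of the fit was run on simulated data with independent normal noise, which cannot show how the calls on these arrays depend on the filter. The genes named are the members, SALL4, the neighbours, the genes of each list that passed (or the 2 with the largest differences), and the 5 most correlated with GCG; other list members were named as examples after their values were seen. Precision is limited by the 6 arrays: the smallest exact permutation p is 0.1.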

Additional observations from a re-analysis of the deposited data

How the results depend on the processing

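GCG lay between -1.94 and -1.59 on the log2 scale over 18 alternatives, and GCGR (0.05 to 0.13), DPP4 (0.55 to 1.15) and FAP (0.15 to 0.52) kept their sign and passed in none. The count of 220 genes called was 0 without the filter, 40 when the filter removed only genes at the floor on every array, 10 with all probe sets fitted, 500 with trend and robust settings and 445 with log2(intensity + 16). Leaving out scrambled replicate 3 with knockdown replicate 2 gave 15, and it was 39 to 103 without any 1 array. The cause was not tested, except that fewer arrays leave fewer degrees of freedom. The count was 41 with the replicate number as a block. Deviations from the group means correlated at 0.00, -0.08 and -0.04 between same-numbered arrays and at -0.07 to 0.09 between the others. The labels do not say whether same-numbered arrays belong together, and so few correlations cannot decide it. The block left no call on a member other than GCG to lose, and those on SCN2A, SCG3, DCN and ACTA2 were lost.

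Differences near 0 changed sign in some fits. With scrambled replicate 3 and knockdown replicate 2 both left out, GLP1R was at -0.08, TANK at 0.14 and APOA2 at -0.05. Without any 1 array GLP1R ran from -0.10 to 0.27, TANK from -0.39 to 0.14, PSMD14 from -0.19 to 0.01, IFIH1 from -0.02 to 0.20 and FIGN from -0.02 to 0.34. SALL4 passed in 15 of 18 alternatives and SCG3 in 10. SCN2A passed in 8 of 17 and had no value under a filter on the mean over all 6 arrays. The table holds no detection calls, so signal over background could not be assessed for any gene.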
